A study of Mus musculus with 8 samples.

Results

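The cytosolic ribosomal protein genes encode the proteins that, with ribosomal RNA, form the large and the small subunit of the ribosome outside the mitochondria. They were chosen by symbol, as every gene named Rpl or Rps with a number (and at most a short suffix), together with the stalk genes Rplp0, Rplp1 and Rplp2 and with Rpsa. The rule found 82 genes among the 11911 listed, 49 of the large and 33 of the small subunit, and all 82 were among the 11317 genes tested. The rule uses no expression value, but this group of genes was chosen with earlier results of these data known. Fau, Rpl36al and Rack1 also encode ribosome components but have other names, and are given apart.

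The study asked how loss of TDRD3, a Tudor domain protein that acts as a transcriptional coregulator, alters T cells that are being turned into regulatory T cells (Tregs). RNA depleted of ribosomal RNA was sequenced in 8 libraries, 4 of the genotype Foxp3 YFP-Cre (control) and 4 of the genotype Tdrd3 fl/fl/Foxp3 YFP-Cre (knockout). Naïve CD4+ T cells of the spleen had been cultured for 36 hours with TGF-β and with antibodies to CD3, CD28, IL-4 and IFN-γ, and both genotypes carry the Cre. That Cre is driven by the Foxp3 locus, so Tdrd3 can be deleted only in cells that have begun to transcribe Foxp3, no sorting of YFP+ cells is described, and the age of the mice used for sequencing is not given in the sources used here.

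A ribosome holds one copy of most of these proteins, and cells make them in step with ribosomal RNA. Many of their mRNAs begin with a 5′ terminal oligopyrimidine (TOP) tract, a C followed by a run of C and T, through which mTOR and LARP1 control translation. Activated T cells are known to expand ribosome production before they divide. RNA levels, which are what was measured here, do not show translation.

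The table of estimated counts summed to between 13258239 and 16001676 per library over all listed genes. Tdrd3 itself was measured at 18.8, 15.1, 9.95 and 17.7 CPM (counts scaled to a common library total) in control replicates 1 to 4 and at 13.7, 10.7, 12.9 and 11.1 CPM in knockout replicates 1 to 4. The groups overlapped, because the library labelled control replicate 3 had the lowest value of all 8, and Tdrd3 did not pass the test (log2 fold change −0.35 ± 0.15 (SE), edgeR quasi-likelihood test, Benjamini-Hochberg adjusted p = 0.496). The Treg markers in that library differed in where they lay. Il2ra was at 2353 CPM there, the highest of all 8, and at most 2162 CPM in the knockout libraries. Foxp3, whose groups overlapped, was at 105.8 CPM there, and Ikzf2 was at 105.4 CPM, the lowest of the controls and below knockout replicate 4 at 109.4 CPM. The summed share, the count of genes at an unadjusted P below 0.05 and the median fold change are given with and without it. Of 8 T cell markers 6 were listed, and their summed level was between 1800 and 1881 CPM in every library. Of the Treg markers, Foxp3, Il2ra and Ikzf2 had an unadjusted P below 0.05 and were lower in the knockout, whereas Ctla4 did not. In bulk RNA, fewer cells of a type and less RNA per cell cannot be told apart. Defining markers of B cells (Ms4a1), of myeloid cells (Csf1r and Adgre1) and of NK cells (Ncr1) were not among the listed genes. The listed B cell markers, mostly Cd74, summed to 61.2 ± 4.06 CPM in the control and 62.0 ± 1.86 CPM in the knockout, and the NK gene Nkg7 was at 7.05 ± 1.22 and 4.23 ± 1.15 CPM (SD, n = 4). Nkg7, Cd8a and Cd8b1 also had an unadjusted P below 0.05 and a lower level in the knockout, as 4.91% of all tested genes did. For Cd8a this rested on the library labelled control replicate 3, at 11.2 CPM, against 0.435 to 1.37 CPM in the other 7 libraries. The single listed myeloid marker, Lyz2, was at 0 in the 4 control libraries and at most 1.22 CPM in the knockout, and the single listed erythroid marker, Hbb-bt, was below 1 CPM in every library. The CD8 pair Cd8a and Cd8b1 summed to 21.6 CPM in the library labelled control replicate 3 and to between 6.67 and 9.95 CPM in the other 7 libraries, and the part of these cells in the results was not tested.

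The start of a gene shows whether a TOP tract is annotated there. The following 30-base windows run from 10 bases before the annotated first base of the GENCODE canonical transcript (GRCm39). They are shown for Rps2, Rpl34, Rplp1 and Rpl4, which are among the genes with the smallest P, and for Rpl15 and Rpl22, which had the longest marked stretches after Rps2. Capitals mark a stretch of at least 5 C or T, counted from a C within 5 bases of the annotated start. In Rpl34, Rpl15 and Rpl22 the pyrimidines go on upstream of that C, in lower case, so the marked stretch is part of a longer run.
Rps2 (chr17:24939072-24939101, plus strand): cggcgCCTCCCTCTTCTTCTTCTTCgggag
Rpl34 (chr3:130523967-130523996, minus strand): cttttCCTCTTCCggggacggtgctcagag
Rplp1 (chr9:61821853-61821882, minus strand): cgagtcgggcatcgattggtcggcgcggtc
Rpl4 (chr9:64080608-64080637, plus strand): tgcggaagacgagtggaaggatatatagag
Rpl15 (chr14:4198703-4198732, plus strand): aagccttCTTCCTTTCCTCTggcggcagcc
Rpl22 (chr4:152410140-152410169, plus strand): ctgactCCTCCCTTTCCCgacagccgactt

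By this definition, 21 of the 82 genes (25.6%) had a tract, against 20.1% of the 11316 tested genes with an annotated start. After that share had been seen, 4 further definitions with longer runs and wider search ranges were tried. They found a tract in between 32.9% and 51.2% of the 82 genes and in between 16.7% and 24.8% of all tested genes. How far the genes stand apart in this respect thus depended on the definition, and an annotated start can lie upstream of the base where transcription begins. Genes with and without a tract had similar genotype differences, with median log2 fold changes of 0.04 (21 genes) and 0.05 (61 genes).

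In the 300 bases from 250 before to 50 after the annotated start, 4 short motifs were searched on both strands. The ETS core CCGGAA occurred in 46.3% of the 82 genes and in 26.8% of all tested genes, and in 46.2% of the mitochondrial ribosomal protein genes and 45.9% of the ribosome assembly factors described further on. The letters AAGATGGC, which belong to the YY1 motif, occurred in 3.66% and 3.78%. TATAAA occurred in 13.4% and 7.73%, and the GC box GGGCGG in 51.2% and 59.6%. In the mitochondrial ribosomal protein genes and the assembly factors TATAAA occurred in 10.3% and 9.84%, and GGGCGG in 42.3% and 59.0%. TATAAA occurred in 16.7% of the regulators of ribosomal protein synthesis and in 0% of RNA polymerase I and its factors, lists also described further on. These are matches of letters, not evidence of binding.

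Together, the 82 genes took 3.72%, 3.78%, 4.02% and 3.58% of all counts in control replicates 1 to 4, and 3.95%, 3.96%, 3.94% and 3.89% in knockout replicates 1 to 4. All 4 knockout libraries lay above control replicates 1, 2 and 4, and below the library labelled control replicate 3, so that the groups overlapped. The mean share was 3.78% ± 0.184 (SD, n = 4) in the control and 3.93% ± 0.031 (SD, n = 4) in the knockout, a difference of 0.159 percentage points. Without the library labelled control replicate 3 the difference was 0.240 points, and without control replicate 4 it was 0.0926 points.

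Both subunits showed the same arrangement of libraries. The large subunit genes made up 2.04% ± 0.107 (SD, n = 4) of the control counts and 2.12% ± 0.0108 (SD, n = 4) of the knockout counts. The small subunit genes made up 1.74% ± 0.0781 (SD, n = 4) and 1.81% ± 0.0219 (SD, n = 4). The ratio of the large to the small share was 1.18 ± 0.0146 in the control and 1.17 ± 0.0103 in the knockout (SD, n = 4), a difference smaller than the spread of either group.

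**Figure D1:**
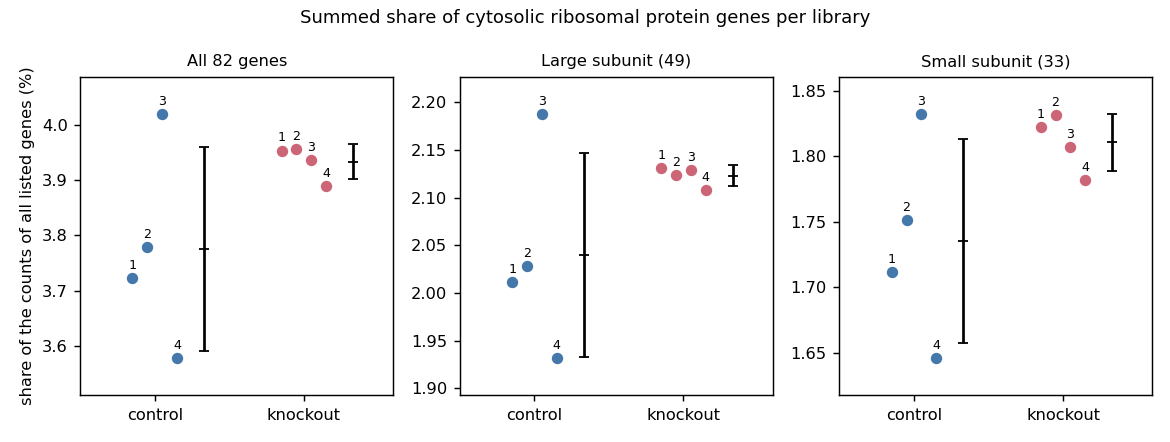
Share of the counts of all listed genes (%, y axis, which does not start at 0) taken by all 82 genes, by the large and by the small subunit, for control and knockout libraries; numbers are replicates, and bars to the right of the points are mean ± SD (n = 4). The library labelled control replicate 3 lies at 4.02% for all genes, above the 4 knockout libraries, and the other 3 control libraries lie below them.

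The control libraries differed from each other far more than the knockout libraries did. The library labelled control replicate 3 had the highest level of all 8 in 46 of the 82 genes (56.1%), against 15.6% of all tested genes. Control replicate 4 had the lowest in 57 of the 82, against 14.1% of all tested genes. The median deviation from the gene's mean over the 8 libraries was 0.12 on the log2 scale in the library labelled control replicate 3, −0.13 in control replicate 4, and between 0.01 and 0.04 in the knockout libraries. The SD of log2(CPM + 0.5) was larger among controls than among knockouts in 75 of the 82 genes (91.5%), against 56.1% of all tested genes. Its median was 0.13 in the control and 0.05 in the knockout, where all tested genes gave 0.10 and 0.09. Without the library labelled control replicate 3, 56 genes still had the larger SD in the control and the median control SD was 0.07.

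**Figure D2:**
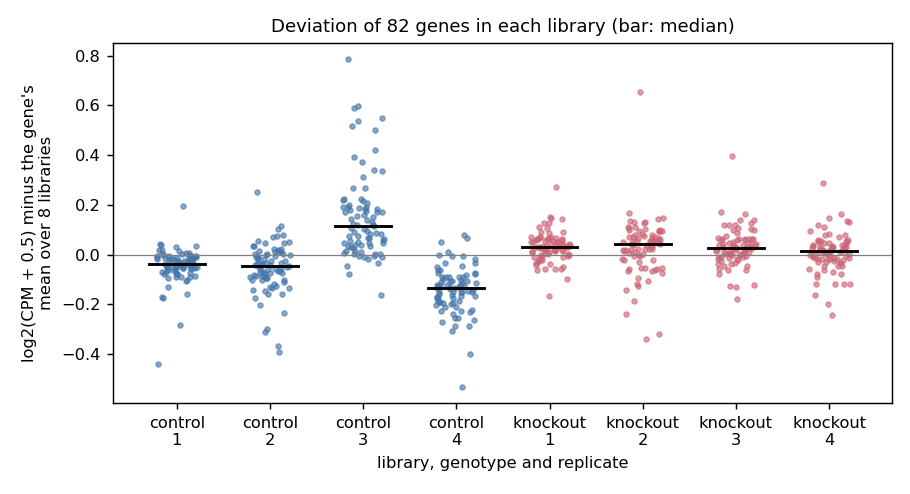
Deviation of each of the 82 genes (points) from its own mean over the 8 libraries, in log2(CPM + 0.5), for the 4 control and the 4 knockout libraries; black bars are medians. The medians of control replicates 3 and 4 lie at 0.12 and −0.13, and those of the knockout libraries between 0.01 and 0.04.

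Across the 8 libraries the genes moved together. The median Pearson r over the 3321 pairs of genes was 0.588, given as a description, since all pairs share the same 8 libraries and their depth. It was 0.771 within the 4 control libraries and 0.0726 within the 4 knockout libraries. Rps12, Rps4l and Rpl10 followed the others least, with r of −0.275, −0.136 and −0.128 between the gene and the median of the other members. Rps4l was at only 3.17 CPM in the control (mean). Every 50-base window of the Rpl10 coding sequence also lay in the listed copy Rpl10-ps3. That copy was at 1417 CPM in the control, against 39.2 CPM for Rpl10. The part of low counts and of the division of reads in these r values was not tested.

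The position of the library labelled control replicate 3 also went with the length of the coding sequence. In the 49 genes with fewer than 500 coding bases it lay 0.26 (median, log2) above the mean of the other controls, and in the 33 longer genes 0.11 above. The same short class among all other tested genes (930 genes) lay 0.13 above, and the longer class (10304 genes) at −0.01. The 33 longer genes took 2.59%, 2.65%, 2.73% and 2.53% of the counts in control replicates 1 to 4 and 2.76%, 2.75%, 2.74% and 2.72% in knockout replicates 1 to 4. Here only the library labelled control replicate 3 reached into the knockout range. Of these longer genes 30 of 33 had a log2 fold change above 0, and of the shorter ones 35 of 49. The part of length in the genotype difference was not tested on its own; with a correction for exon length the median log2 fold change of the 82 genes was 0.03.

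Gene by gene, no ribosomal protein gene passed the test after adjustment over all 11317 genes (edgeR, adjusted p below 0.05), where 0.265% of all genes did. Of the 82 genes, 8 had an unadjusted P below 0.05 and a higher level in the knockout (9.76%), against 4.38% of all genes, and 0 had one with a lower level, against 4.91%. DESeq2 also gave 0 adjusted calls and 8 genes higher at an unadjusted P below 0.05, against 3.76% of all genes in that fit. The count of 8 rested on single libraries. It was 40 without the library labelled control replicate 3, where 4.94% of all genes were higher, and 12 without control replicates 3 and 4, where 6.32% were. It was 5 without control replicate 1, against 3.53% of all genes. Without control replicate 4 it was 3 of 82, against 5.03% of all genes, and without knockout replicate 2 it was 4 of 82, against 4.99%, so that in these fits the members were not called more often than all genes. In 5 genes the groups did not overlap, all higher in the knockout (6.10%, against 2.25% of all genes), and no gene was lower without overlap, against 2.63%.

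The differences were small. The median log2 fold change was 0.05 for the 82 genes, 0.05 for the large and 0.05 for the small subunit, and 0.00132 for all tested genes, and 65 of the 82 genes (79.3%) lay above 0, against 50.6% of all genes. The 82 values are not independent, since the genes moved together across libraries. Without control replicate 4 the median was 0.01 and 48 genes lay above 0, and without the library labelled control replicate 3 it was 0.10 and 79 did. The medians of the large and of the small subunit were 0.0111 and 0.0116 without the former, and 0.101 and 0.0995 without the latter. That of the small subunit was 0.0279 without knockout replicate 2 and 0.0245 with a correction for exon length. A single gene, Rpl39l, differed by more than 1.2-fold, and its highest level in any library was 1.44 CPM.

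**Figure D3:**
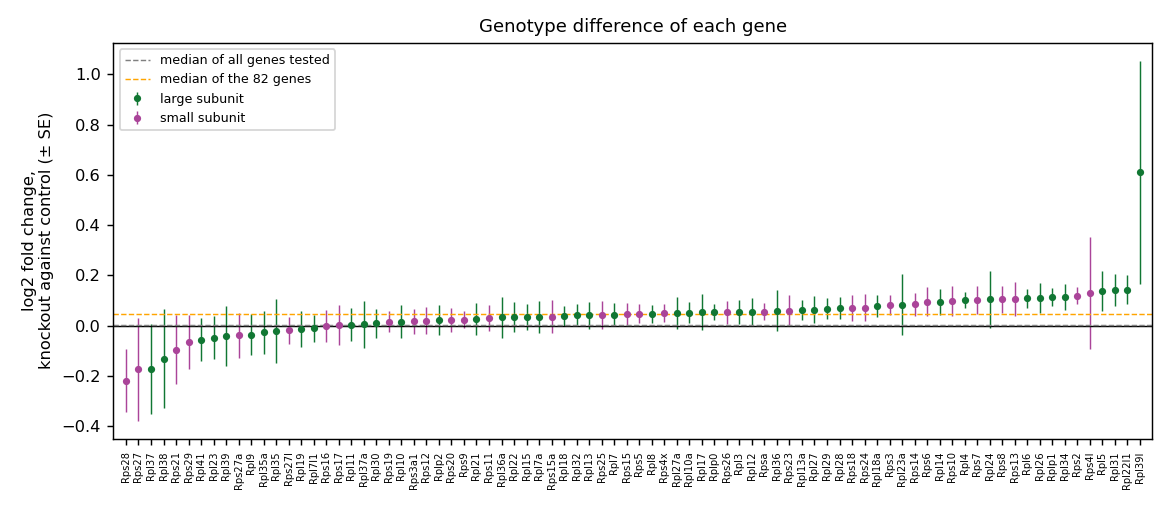
Log2 fold change of each gene, knockout against control (y axis; bars are the standard error of the edgeR fit), ordered by value and coloured by subunit. The dashed lines mark the medians of the 82 genes (0.05) and of all tested genes (0.00132), and Rpl39l lies apart at 0.61 with the widest bar.

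Rps2, which lines the mRNA entry channel of the small subunit, had the smallest P of all members. It was measured at 2591, 2811, 2688 and 2798 CPM in control replicates 1 to 4 and at 3062, 2944, 2918 and 2901 CPM in knockout replicates 1 to 4. Every knockout library lay above every control library, yet the gene did not pass the adjusted test (log2 fold change 0.12 ± 0.04 (SE), edgeR adjusted p = 0.188, exact permutation p = 0.0286, two-sided, which is the lowest that 4 against 4 libraries can give). Over the alternative fits its log2 fold change lay between 0.09 and 0.13.

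Rplp1 encodes an acidic stalk protein of the large subunit, where elongation factors bind. Its levels were 768, 804, 820 and 784 CPM in the control and 861, 883, 861 and 828 CPM in the knockout (log2 fold change 0.11 ± 0.04 (SE), edgeR adjusted p = 0.249), and the groups did not overlap. The stalk base gene Rplp0 was at 3169, 3247, 3377 and 3337 CPM in the control and at 3439, 3395, 3384 and 3396 CPM in the knockout, also without overlap, with a log2 fold change of 0.05. The third stalk gene, Rplp2, overlapped, at 232 ± 24.1 CPM in the control and 235 ± 14.6 CPM in the knockout (SD, n = 4).

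Rpl4, whose protein lines the exit tunnel, was at 2726, 2681, 2781 and 2599 CPM in the control and at 2921, 2911, 2837 and 2902 CPM in the knockout (log2 fold change 0.10 ± 0.03 (SE), edgeR adjusted p = 0.252). Rpl6 was at 485, 509, 492 and 455 CPM in the control and at 516, 528, 526 and 521 CPM in the knockout (log2 fold change 0.11 ± 0.04 (SE), edgeR adjusted p = 0.338). Both were higher in all 4 knockout libraries than in any control library. Rps3, a small subunit protein that also has a role in DNA repair, overlapped, at 1390, 1442, 1474 and 1299 CPM in the control and 1472, 1482, 1499 and 1479 CPM in the knockout (edgeR adjusted p = 0.53).

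Rpl31, Rpl34 and Rpl22l1 completed the genes with an unadjusted P below 0.05, with log2 fold changes of 0.14, 0.11 and 0.14, and in all 3 the groups overlapped. Without control replicate 4 the log2 fold change of Rpl31 was 0.0673, that of Rpl22l1 0.0836 and that of Rps3 0.046. Rpl22l1 is a paralog that can take the place of Rpl22, which is known for its role in T cell development. It was at 89.5 ± 8.00 CPM in the control and 98.8 ± 2.25 CPM in the knockout, while Rpl22 was at 346 ± 43.1 and 355 ± 2.88 CPM (SD, n = 4).

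**Figure D4:**
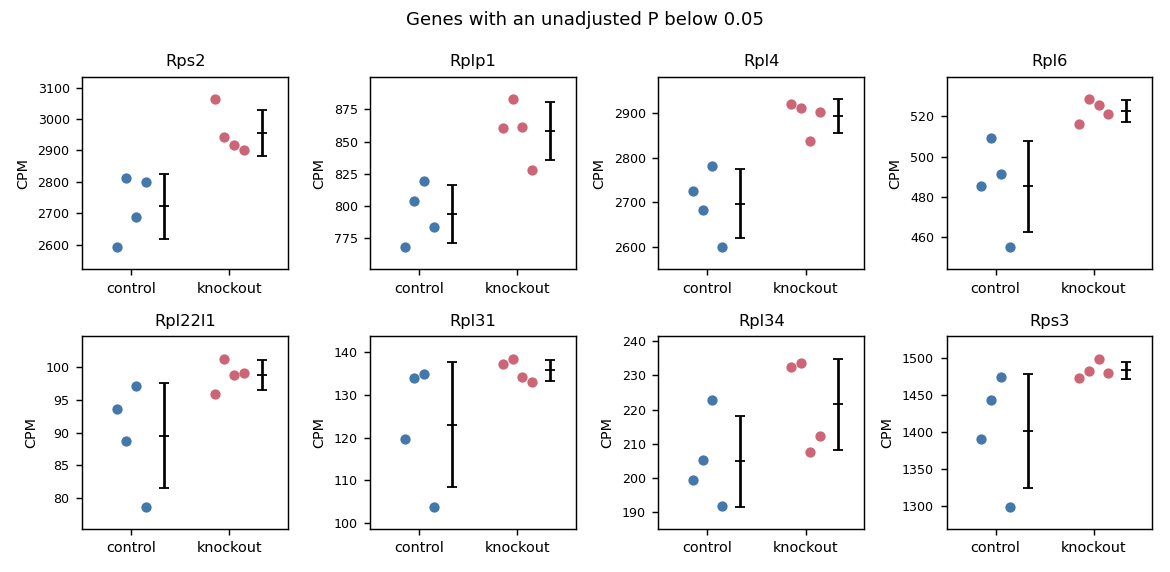
Level (CPM, y axes, which do not start at 0) of the 8 genes with an unadjusted P below 0.05, in control and knockout libraries (points; bars are mean ± SD, n = 4). Knockout and control points do not overlap for Rps2, Rplp1, Rpl4 and Rpl6, and do for the other 4.

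The 8 lowest-P genes on the lower side were Rps28, Rpl37, Rps27, Rps21, Rpl38, Rpl41, Rps29 and Rpl23, all short, and none had an unadjusted P below 0.05. In all 8, the highest of the control libraries was the one labelled replicate 3, and without it the direction turned for Rpl37, Rps21, Rpl38, Rpl41, Rps29 and Rpl23. Rps28 was at 24.1, 22.7, 35.1 and 21.95 CPM in control replicates 1 to 4, and at 23.6, 18.99, 22.5 and 24.2 CPM in the knockout. Rpl38, known for its part in the translation of Hox mRNAs, was at 9.17, 7.78, 17.2 and 7.93 CPM in the control and at 10.5, 9.34, 9.77 and 8.96 CPM in the knockout. In both, the library labelled control replicate 3 was the highest of all 8.

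Of the genes with known roles beyond the average subunit, Rpl5 and Rpl11, which bind MDM2 when ribosome assembly fails, had log2 fold changes of 0.14 ± 0.08 and 0.00 ± 0.07 (SE). For Rpl5, control replicate 4 was the lowest of all 8 libraries, at 26.8 CPM, and lowered the control mean. The other controls were at 30.4 to 35.0 CPM, and the knockout libraries at 32.7 to 36.2 CPM. Rps6, the substrate of S6 kinase, was at 205 ± 19.6 CPM in the control and 219 ± 10.6 CPM in the knockout. Rps19 and Rps14, whose loss underlies forms of anemia, were at 445 ± 28.1 and 555 ± 41.1 CPM in the control and at 450 ± 4.71 and 589 ± 17.7 CPM in the knockout. Rpsa was at 2095 ± 65.9 and 2176 ± 21.3 CPM (SD, n = 4). None of these passed the test, and in all of them the groups overlapped.

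Of the 5 paralogs, which resemble a main gene but are used less or in few tissues, Rpl22l1 had an unadjusted P below 0.05 (above), and Rpl39l had the largest log2 fold change of the 82 genes, 0.61 ± 0.44 (SE), at 0.619 ± 0.278 CPM in the control and 0.941 ± 0.419 CPM in the knockout. Rps27l was at 105 ± 8.58 CPM in the control and 103 ± 3.54 CPM in the knockout, and Rpl7l1 at 170 ± 10.7 and 169 ± 10.5 CPM. Rps4l was at 3.17 ± 0.606 and 3.46 ± 0.549 CPM (SD, n = 4). Of their main genes, Rpl7 and Rps4x had log2 fold changes of 0.04 and 0.05, and Rpl39 and Rps27 had −0.04 and −0.17. For Rpl39 the log2 fold change was 0.16 without the library labelled control replicate 3. Apart from Rpl22l1, none of these had an unadjusted P below 0.05. The same held for Rpl3 (0.05), which helps to form the peptidyl transferase centre, and for Rpl10a (0.05), Rps25 (0.04), Rpl10 (0.02) and Rpl36a (0.03). For Rpl3 and Rps25 the library labelled control replicate 3 was the highest of all 8, at 587 and 563 CPM, and raised the control mean.

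Levels per coding length spanned 1331-fold among the genes in the control libraries. Rpl41, which encodes the shortest ribosomal protein, was highest at 5360 CPM per coding kilobase, followed by Rplp0 at 3452 and Rps2 at 3097. The coding length used was that of the annotated canonical transcript, 138 bases for Rpl41. The order depended on the length used, since per kilobase of the whole canonical transcript Rps2 was first at 2484, Rplp0 second at 2405 and Rpl41 in place 9 at 1321. Per coding kilobase Rps4l and Rpl39l were lowest, at 4.03 and 4.05, below Rps27 at 15.1. Per kilobase of the whole canonical transcript Rpl39l was lowest at 0.754, followed by Rpl37 at 1.93 and Rps4l at 2.37. Levels of single members are uncertain, because ribosomal protein genes have many processed copies in the genome and the counting divided reads among matching genes. Of the 82 genes, 27 had every 50-base window of their coding sequence in common with another annotated gene, and 93.3% of the member values were not whole numbers (tolerance 1e-06), against 43.0% of all values. Every window of Rps27 also lay in the listed copy Rps27rt. In the control libraries Rps27rt was at 285 CPM and Rps27 at 3.82 CPM, so the low level of Rps27 may reflect how reads were divided. The 41 genes with at least 90% of windows shared and the 41 with fewer had median log2 fold changes of 0.05 and 0.04. With 9 listed retrocopies added, the summed share was 4.23% ± 0.215 in the control and 4.3999% ± 0.0344 in the knockout (SD, n = 4).

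The other genes of ribosome production were followed as lists, each read against the 4.38% of all genes that were higher and the 4.91% that were lower at an unadjusted P below 0.05. No gene of these lists passed the adjusted test, and none was lower at an unadjusted P below 0.05. Of the ribosome components outside the name rule, Rpl36al was higher at an unadjusted P below 0.05, with a log2 fold change of 0.16. Rack1 was at 1774, 1849, 1796 and 1747 CPM in the control and at 1861, 1865, 1858 and 1867 CPM in the knockout, without overlap, and Fau was at 12.0 CPM in both.

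Among 15 TOP mRNAs outside the ribosome, 3 were higher, the elongation factor genes Eef1a1 and Eef1b2 and the nucleolar chaperone gene Npm1, and 12 had a log2 fold change above 0 (median 0.05). On the other side Nap1l1 and Vim, the intermediate filament gene vimentin, had −0.05 and −0.01. Of 14 genes of RNA polymerase I and its factors, which make ribosomal RNA, 1 was higher (Polr1b, log2 fold change 0.14 ± 0.05 (SE)) and 12 lay above 0, with a median of 0.0448, which was 0.0294 without control replicate 1. Polr1c had 0.12, and on the lower side Taf1c and Polr1g had −0.08 and −0.06. Of 61 ribosome assembly factors, 7 were higher, among them Ebna1bp2 and Lyar, and 55 lay above 0, with a median of 0.05, which was 0.03 without control replicate 1, 0.0251 without control replicate 2 and 0.0831 without the library labelled control replicate 3. On the lower side Imp3 and Bysl had −0.07 and −0.06. Of 78 mitochondrial ribosomal protein genes, 3 were higher, among them Mrps11 and Mrps22, and 50 lay above 0, with a median of 0.0237. That median was 0.00115 without control replicate 2, 0.00615 without knockout replicate 1, 0.0136 without control replicate 4, 0.0605 without the library labelled control replicate 3 and 0.0104 with a correction for exon length. On the lower side Mrpl23 and Mrps14 had −0.32 and −0.12, with no unadjusted P below 0.05.

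The 24 tested regulators of ribosomal protein synthesis had a median log2 fold change of −0.01, with 9 above 0, and the sign of the median turned without knockout replicate 2 (0.00774), without control replicate 4 (0.0037) and without knockout replicates 1 and 4 (0.00664). Eif4ebp1, which encodes a repressor of cap-dependent translation that mTOR inactivates, was at 75.4, 78.9, 81.2 and 80.5 CPM in the control and at 97.3, 84.6, 92.6 and 88.0 CPM in the knockout. The groups did not overlap, and the adjusted p was 0.146 (edgeR, log2 fold change 0.20 ± 0.05 (SE)). Gabpa, a subunit of an ETS factor, likewise did not overlap, at 105 ± 2.68 CPM in the control and 117 ± 6.78 CPM in the knockout (SD, n = 4; edgeR adjusted p = 0.231). Myc, Mtor, Larp1 and Rps6kb1 had log2 fold changes of 0.08, −0.01, 0.04 and 0.08, and Mdm2 and Sp1 had −0.06 and −0.04, and none of these had an unadjusted P below 0.05.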

How the data were processed

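Per the methods and the submitters' processing notes, the authors aligned reads to GRCm39 with STAR 2.7.8a and deposited estimated counts per gene from the Partek E/M algorithm, filtered and not normalized. The annotation release is not given in the sources used here. Estimated counts were rounded and tested for genotype with edgeR 4.0.16 (R 4.3.3; filterByExpr, TMM, quasi-likelihood test, two-sided, Benjamini-Hochberg over 11317 genes). CPM used TMM library sizes, with factors from 0.993 to 1.00, except for the cell type markers, which were scaled to raw totals, and 3 counts corresponded to 0.188 to 0.226 CPM; shares are of unrounded counts. Exact permutation tests used log2(CPM + 0.5) over 70 arrangements. DESeq2 1.42.0 and limma 3.58.1 gave alternatives. Coding lengths, shared windows and gene starts came from GENCODE release 39. For each gene the canonical transcript gave the coding sequence, and it need not encode the main form of the protein. The scripts were tested on simulated data.

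The members, gene lists and tests were chosen with earlier results of these data known. Named genes were the 8 smallest P in each direction, the 3 highest and 3 lowest levels per coding length, members with fixed roles, paralog pairs, the 3 members least like the others, and the 2 smallest P in each direction of each list. The labels number 4 replicates per genotype, whereas the study's methods speak of 3 per group from independent mice. The origin of all 4 is thus not settled, and p-values measure the spread between these libraries. No libraries were duplicates. Results for 1 ribosome component outside the name rule and 1 cell type marker are not reported here.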

Additional observations from a re-analysis of the deposited data

Results flagged for a closer look

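In groups of 4 libraries, a value was singled out when its gap to the nearest other library relative to the group's range exceeded Dixon's critical value. Of 152 groups tested for the named genes, the shares and the summed lists, 4 met this, all in the control; chance gives about 1 in 20. Over all 82 members (164 groups) it was met 4 times by the library labelled control replicate 3 and 1 time each by knockout replicates 1 and 4. The library labelled control replicate 3 stood above the other controls in Rps28 (35.1 CPM, others 21.95 to 24.1), in Rpl38 (17.2 CPM, others 7.78 to 9.17) and in Rpl41 (965 CPM, others 639.7 to 690.9). Control replicate 4 stood above the others in the summed level of the regulators of ribosomal protein synthesis (3988 CPM, others 3848 to 3863).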

How the results depend on the processing

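No ribosomal protein gene had an adjusted p below 0.05 under any of the alternatives, the 8 fits that left out 1 library each included. In 18 of the 38 named members the sign of the log2 fold change turned under at least 1 alternative. The median log2 fold change of the members lay between 0.01 and 0.10 in those 8 fits. The number of members higher at an unadjusted P below 0.05 ranged from 3 to 40 when 1 library was left out, and of members lower from 0 to 1. The number of genes called among all genes (30) ranged from 6 to 162 when 1 library was left out, and was 81 with DESeq2, 95 with voom and quality weights, 3 without knockout replicates 1 and 4, and 127 without control replicates 3 and 4. With the replicate number as a block it was 87, and with the replicate block and a GC correction 123. In their deviations from the group means over all tested genes, same-numbered libraries of the 2 genotypes correlated between −0.0458 and 0.0692. Differently numbered ones correlated between −0.103 and 0.0946. Whether same-numbered libraries were prepared together is not given, and these correlations cannot settle it.

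Leaving out control replicates 3 and 4, an alternative chosen after seeing the data, gave medians of 0.0855 for RNA polymerase I, 0.120 for assembly factors, 0.0583 for mitochondrial ribosomal proteins and 0.0200 for regulators. The tract definitions, of which all but the first were likewise chosen after seeing the shares, found 21 members with the first, 42 with runs of at least 7 from 10 bases before to 50 after the start, 36 with runs of at least 8 there, 27 with runs of at least 7 up to 20 bases after, and 38 with runs of at least 8 from 20 before to 49 after. Without control replicates 3 and 4 Npm1 (log2 fold change 0.19) and Lyar (0.27) passed the adjusted test, and without knockout replicate 2 Eif4ebp1 did (0.23). Depth limits the members of low level, such as Rps27, Rpl39l and Rps4l.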
